A study of Mus musculus with 15 samples.

Results

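Mt1, Mt2, Mtf1, Slc30a1 and Slc39a14 are 5 of the 25239 genes in a table of RNA recovered by immunoprecipitation (RIP-seq) from ST2 cells, a mouse stromal cell line. Mt1 and Mt2 encode metallothioneins, and the other three encode a zinc-sensing transcription factor and a pair of zinc transporters. The genes were picked by symbol because Mt1 was higher with IL-17 in the control IgG precipitate, so that contrast is described here without a test. The study looked for transcripts held by Arid5a, an RNA-binding protein known to stabilise inflammatory mRNAs. All cells were trypsinised and fixed in 1% formaldehyde, and lysates went onto beads carrying either an antibody to Arid5a or mouse IgG2b. The 4 groups were the Arid5a RIP after IL-17 at 200 ng/mL for 3 h (4 libraries), the Arid5a RIP in medium (4), the IgG RIP after the same IL-17 treatment (3, numbered 2 to 4) and the IgG RIP in medium (4). ST2 is a single established line with no genetic change named in the labels, and no unprecipitated RNA was analysed here. A level is therefore that of recovered RNA, in which more transcript per cell, more cells carrying it and better recovery cannot be told apart. The labels do not say whether replicates were separate cultures, so p-values measure only the spread between these libraries.

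Metallothioneins are small cysteine-rich proteins that bind zinc and copper and buffer the cell against metals and oxidants. When free zinc rises, the factor encoded by Mtf1 binds metal response elements, short DNA motifs in the promoters of Mt1, Mt2 and Slc30a1, and switches these genes on. Slc30a1 encodes a zinc exporter of the plasma membrane, and Slc39a14 encodes an importer of zinc, manganese and non-transferrin iron. In the liver, metallothioneins and Slc39a14 are both known as acute-phase genes that respond to inflammatory cytokines.

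Mt2 and Mt1 are neighbours on mouse chromosome 8 (94172618 to 94173567 and 94178883 to 94180327, GRCm38.p6), with 5315 bases between their gene models. Slc30a1 lies on chromosome 1 (191906697 to 191913248), Mtf1 on chromosome 4 (124802549 to 124849800) and Slc39a14 on chromosome 14 (70303467 to 70351452). Start-site windows from RefSeq (GRCm38.p6, plus strand, 250 bases before and 50 after the start) matched 4 of the 5 genes by symbol. They are chr8:94178839-94179138 for Mt1, chr8:94172368-94172667 for Mt2 and chr1:191906531-191906830 for Slc30a1. These 3 are shown because they are the textbook targets of MTF1, and capitals mark matches to the core of the metal response element, spelled TGCACNC or TGCGCNC, on either strand.
Mt1: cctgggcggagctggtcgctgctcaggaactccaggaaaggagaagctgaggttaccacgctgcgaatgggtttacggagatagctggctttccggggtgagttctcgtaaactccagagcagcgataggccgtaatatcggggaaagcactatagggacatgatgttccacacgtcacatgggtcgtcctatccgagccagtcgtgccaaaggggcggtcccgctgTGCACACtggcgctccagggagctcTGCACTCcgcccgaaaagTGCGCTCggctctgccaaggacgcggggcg
Mt2: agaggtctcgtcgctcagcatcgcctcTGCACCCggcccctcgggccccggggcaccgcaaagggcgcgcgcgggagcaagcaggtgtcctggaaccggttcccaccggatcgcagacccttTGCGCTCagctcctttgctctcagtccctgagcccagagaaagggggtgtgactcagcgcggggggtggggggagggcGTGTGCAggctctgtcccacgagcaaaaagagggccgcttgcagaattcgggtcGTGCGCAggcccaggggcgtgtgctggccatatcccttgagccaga
Slc30a1: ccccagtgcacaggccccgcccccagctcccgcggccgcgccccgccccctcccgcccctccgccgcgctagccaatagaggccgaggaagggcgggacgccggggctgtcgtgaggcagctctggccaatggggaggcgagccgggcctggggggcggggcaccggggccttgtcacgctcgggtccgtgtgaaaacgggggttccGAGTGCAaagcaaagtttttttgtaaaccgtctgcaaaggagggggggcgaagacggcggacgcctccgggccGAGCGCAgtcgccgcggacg
Mt1 held 3 matches, Mt2 4 and Slc30a1 2, while the window of Mtf1 held 0. Of 32851 windows of this length in the table, 25.7% held at least 1 match, 7.11% at least 2, 1.97% at least 3 and 0.517% at least 4. A match is a description of letters, not a mapped binding site. The models of Mt1 and Slc30a1 in the gene table begin before the start sites used for their windows, so part of each window lies inside the model.

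Library totals ran from 939139 counts (IgG medium replicate 2) to 5713913 (Arid5a IL-17 replicate 3). Levels below are CPM, that is counts scaled to a common library size with TMM factors, and FPKM where genes are compared with each other per length. The stromal label was checked with 10 markers, all of which had counts in every library, with summed levels from 10650 to 16720 CPM. The lists for haematopoietic, endothelial and epithelial cells summed to at most 38.75 CPM in any library. Most of the stromal sum came from Col1a1, Col1a2 and Cxcl12 (means of 7580, 3420 and 1830 CPM). Lepr, the lowest stromal marker, averaged 6.77 CPM, below endothelial Cdh5 (8.54) and epithelial Cdh1 (7.57). The other stromal markers averaged 29.7 CPM or more. IL-17 responders checked the treatment: Cxcl1, a neutrophil chemokine gene, was higher with IL-17 in the Arid5a RIP by a log2 fold of 4.36 ± 0.28 (SE, adjusted p = 8.42e-14), Zc3h12a by 2.79 ± 0.26 and Nfkbiz by 1.94 ± 0.20.

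In FPKM the order of levels over all 15 libraries was Mt1 (382.6 ± 149, SD, n = 15), Mt2 (56.3 ± 37.0), Slc39a14 (14.1 ± 3.06), Slc30a1 (4.50 ± 1.08) and Mtf1 (3.65 ± 1.08). Mt1 lay above Mt2, and Slc39a14 above Slc30a1, in 15 of 15 libraries. Mt2 lay above Slc39a14 in 14 of 15. Slc30a1 and Mtf1 differed by less than their spread, with Slc30a1 above in 12 of 15. The other metallothionein genes were close to silent: Mt3, the isoform known from brain, had at most 11 counts in a library, and Mt4, the isoform of squamous epithelia, at most 4. Mt1 and Mt2 have similar coding sequences, but the deposited estimates of both were whole numbers in 15 of 15 libraries.

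In the Arid5a RIP, which the rule for choosing the genes did not use, Mt2 rose with IL-17. Mt2 stood at 29.4, 34.9, 25.7 and 19.3 CPM in Arid5a IL-17 replicates 1 to 4, against 9.45, 6.61, 9.94 and 9.32 CPM in Arid5a medium replicates 1 to 4. Every IL-17 library lay above every medium library. The fitted log2 fold was 1.62 ± 0.40 (SE, edgeR quasi-likelihood, adjusted p = 0.0137), a 3.07-fold difference. Counts behind it were 68 to 153 with IL-17 and 16 to 36 in medium.

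Mt1, the more abundant of the pair, had a smaller fold that did not pass the test. It stood at 169.0, 145, 130.0 and 112 CPM in Arid5a IL-17 replicates 1 to 4, against 101, 111, 78.6 and 90.4 CPM in Arid5a medium replicates 1 to 4. The groups did not overlap, although Arid5a IL-17 replicate 4 and Arid5a medium replicate 2 differed by less than 1 CPM. The log2 fold was 0.55 ± 0.19 (adjusted p = 0.0803). Of the 17835 genes tested in this comparison 5.65% were called at an adjusted p below 0.05, 4.84% higher and 0.813% lower, and 10.7% had all IL-17 libraries above all medium libraries. Mt2 was the only one of the 5 genes called.

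**Figure D1:**
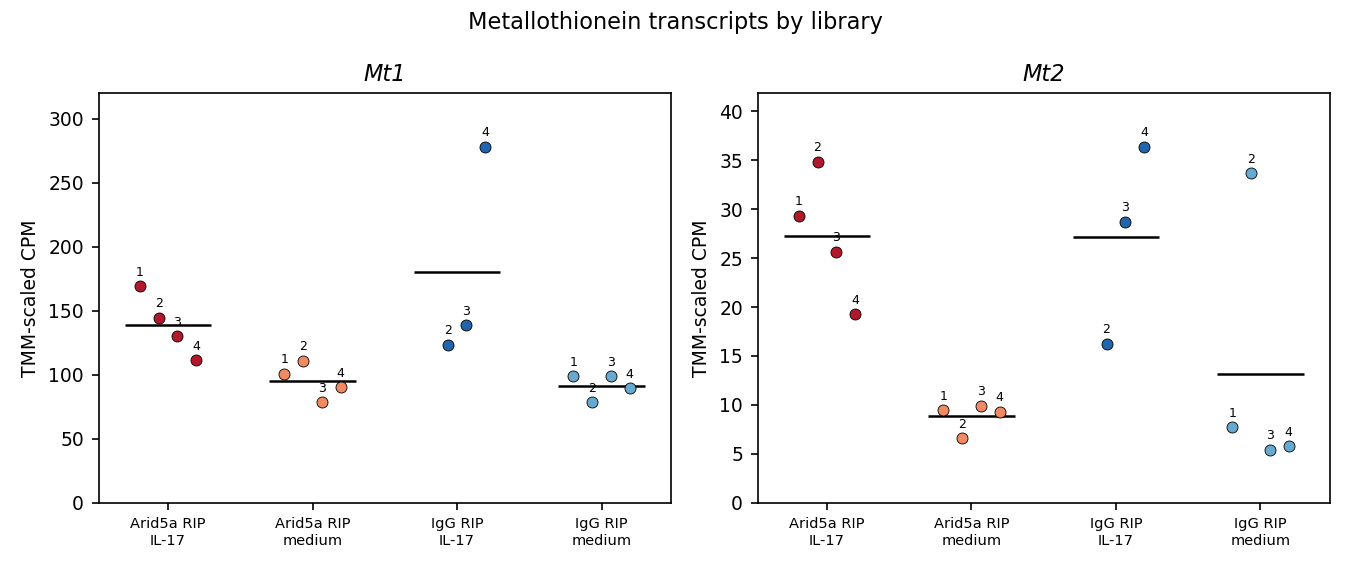
TMM-scaled CPM (vertical axis) of Mt1 and Mt2 in each of the 15 libraries, by group (horizontal axis). Points are libraries labelled with their replicate number, and lines are group means. Mt2 in the Arid5a RIP lies at 19.3 to 34.9 CPM with IL-17 and at 6.61 to 9.94 CPM in medium, and single libraries stand apart in the IgG RIP (Mt1 in IL-17 replicate 4, Mt2 in medium replicate 2).

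The size of both folds depended on the scaling and on the gene length used. In this comparison the 5394 well-expressed genes (average log2 CPM of 5 or more) had a median log2 fold of 0.30 after TMM scaling, and all genes tested had a median of -0.12. With TMM factors computed from those genes alone, Mt2 stood at 1.3 ± 0.41 (adjusted p = 0.0936) and Mt1 at 0.24 ± 0.17 (adjusted p = 0.414). Upper-quartile factors gave 1.39 for Mt2 (adjusted p = 0.0683) and 0.33 for Mt1 (adjusted p = 0.280). The direction was higher for both genes under each of these scalings. The calls over all genes moved with the factors too, from 863 higher and 145 lower with TMM over all genes to 116 higher and 207 lower with factors of the well-expressed genes.

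Both transcripts are short, and the effective length implied by the deposited counts and FPKM moved with the groups. For Mt1 it was 236.3 to 309.1 bases in Arid5a IL-17 and 345.3 to 359.6 bases in Arid5a medium libraries. It was 297.8 to 367.3 bases in IgG IL-17 and 312.9 to 357.4 bases in IgG medium libraries. An edgeR fit with this length as an offset, chosen after seeing the data, put Mt1 at 0.90 ± 0.20 (adjusted p = 0.00537) and Mt2 at 1.96 ± 0.43 (adjusted p = 0.00445). On the log2(FPKM + 1) scale with limma, Mt1 stood at 0.67 ± 0.20 (adjusted p = 0.119) and Mt2 at 1.69 ± 0.43 (adjusted p = 0.0828). Over these settings the folds of both genes ranged more widely than their standard errors, and that of Mt2 stayed above 1.

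**Figure D2:**
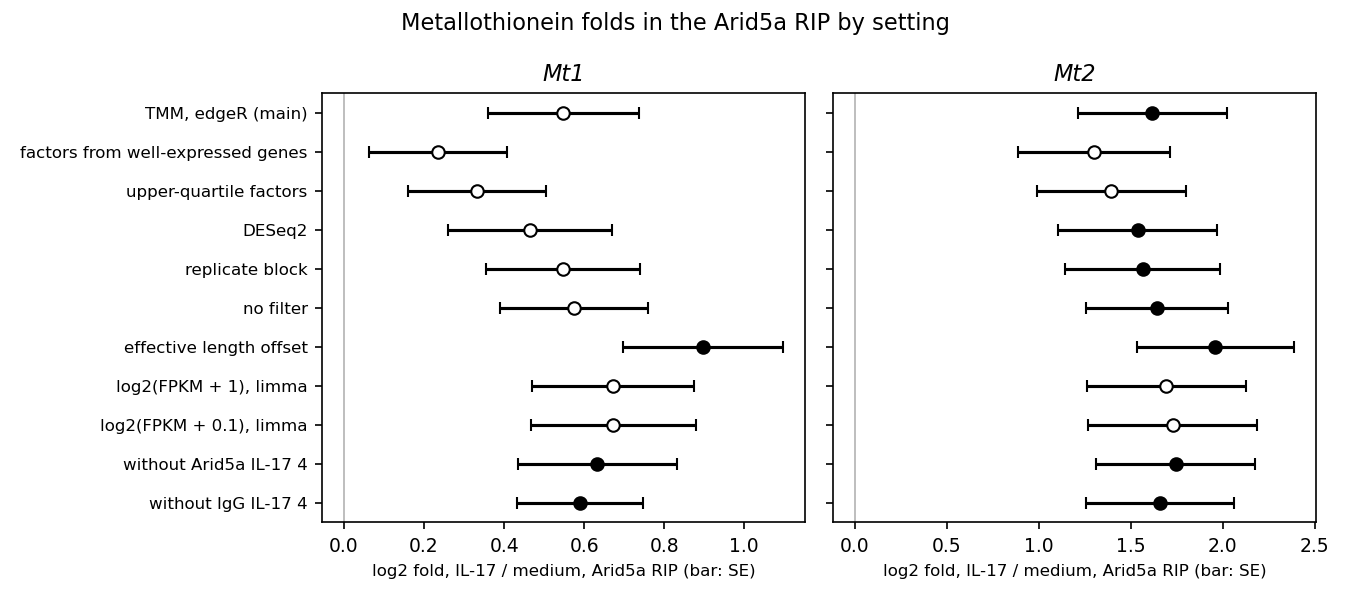
Fitted log2 folds of IL-17 against medium in the Arid5a RIP (horizontal axis, bars are SE) for Mt1 and Mt2 under each setting (vertical axis). Filled points have an adjusted p below 0.05. The fold of Mt1 lies between 0.24 and 0.90 and that of Mt2 between 1.3 and 1.96.

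Single libraries also moved the calls. Mt2 kept its direction with each of the 15 libraries left out, with log2 folds from 1.48 to 1.74. Its adjusted p was 0.0596 without Arid5a medium replicate 2, 0.0554 without Arid5a IL-17 replicate 1 and 0.0825 without Arid5a IL-17 replicate 2. Mt1 ran from 0.44 to 0.63 in the same fits. Its calls included the fits without IgG IL-17 replicate 3, IgG IL-17 replicate 4 (adjusted p = 0.0165) or Arid5a IL-17 replicate 4 (0.0352). The IgG libraries enter this contrast only through the shared filter, scaling and estimate of spread. No tested marker of haematopoietic, endothelial or epithelial cells passed edgeR between the same Arid5a libraries. Of these markers 0 had an unadjusted p below 0.05, against 22.3% of all genes tested. The 7 haematopoietic markers summed to between 7.55 and 11.3 CPM with IL-17, against 12.3 to 20.2 CPM in medium, without overlap. Of all single genes tested, 9.25% were lower with IL-17 without overlap. The 5 endothelial markers summed to 6.38 to 31.4 against 26.8 to 36.4 CPM, and the 5 epithelial markers to 6.92 to 25.8 against 21.0 to 35.5 CPM, both with overlap. All members of the 3 lists had counts in both groups, and their part in the metallothionein result was not tested.

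In the IgG RIP, the contrast that led to the choice, Mt1 stood at 124, 139 and 278 CPM in IL-17 replicates 2, 3 and 4. In medium replicates 1 to 4 it stood at 98.7, 78.6, 99.0 and 89.3 CPM. The groups did not overlap, as for 4.27% of all genes in this direction, and replicate 4 of IgG IL-17 held the highest level of all 15 libraries. The log2 fold was 0.96 ± 0.21 (SE) with all libraries and 0.54 ± 0.19 without IgG IL-17 replicate 4. Over all genes edgeR called 0.493% in this contrast, from which nothing is read about the 5 genes. Of the IL-17 responders, Cxcl1 stood at 135, 87.2 and 203 CPM in IgG IL-17 replicates 2, 3 and 4. Zc3h12a stood at 45.0, 53.6 and 55.5 CPM in the same order. Nfkbiz went the other way, at 108, 87.6 and 73.7 CPM, and was lowest in replicate 4. Why replicate 4 stood apart for Mt1 was not tested.

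Mt2 in the IgG RIP stood at 16.3, 28.7 and 36.4 CPM in IL-17 replicates 2, 3 and 4, against 7.73, 33.7, 5.42 and 5.76 CPM in medium replicates 1 to 4. The groups overlapped through a single library, IgG medium replicate 2, the shallowest of the series. Its Mt2 level rested on 30 counts, while its Mt1 level was the lowest of its group. The log2 fold was 1.28 ± 0.45 (SE) with this library and 2.07 ± 0.36 without it. In FPKM, Mt1 exceeded Mt2 by a factor between 4.38 and 6.06 in Arid5a IL-17 libraries, against 8.23 to 17.5 in Arid5a medium libraries. The factor was between 5.05 and 7.95 in IgG IL-17 libraries, against 13.3 to 19.0 in IgG medium replicates 1, 3 and 4 and 2.43 in IgG medium replicate 2. In the Arid5a RIP, each IL-17 library held more Mt2 relative to Mt1 than each medium library. Mt2 in those medium libraries rested on 16 to 36 counts. The IgG factors use the Mt1 values behind the choice of genes and are given as a description. How many pairs of genes part in this way was not examined.

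The transporters and Mtf1 did not pass the test with IL-17 in the Arid5a RIP. Slc39a14, the importer, stood at 97.7, 90.9, 89.2 and 51.2 CPM in Arid5a IL-17 replicates 1 to 4, against 59.0, 61.5, 61.1 and 65.8 CPM in Arid5a medium replicates 1 to 4. Replicates 1 to 3 lay above every medium library and replicate 4 lay below them. The log2 fold was 0.41 ± 0.20 (adjusted p = 0.221). Without Arid5a IL-17 replicate 4 it was 0.58 ± 0.19 (adjusted p = 0.0470), while factors of the well-expressed genes put it at 0.09 ± 0.18 (adjusted p = 0.786). In the IgG RIP, Slc39a14 stood at 54.4, 63.0 and 40.2 CPM with IL-17 against 72.2, 53.9, 96.1 and 53.5 CPM in medium, a log2 fold of -0.40 ± 0.23 (SE).

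Slc30a1, the exporter that MTF1 controls, stood at 21.0, 19.6, 20.1 and 11.6 CPM in Arid5a IL-17 replicates 1 to 4, against 22.2, 22.3, 23.8 and 21.0 CPM in Arid5a medium replicates 1 to 4. Each IL-17 library lay below each medium library, as was the case for 9.25% of all genes tested, but the nearest pair differed by less than 1 CPM. The log2 fold was -0.30 ± 0.28 (adjusted p = 0.538). In the IgG RIP its level ran from 22.0 to 28.4 CPM with IL-17 and from 18.3 to 35.9 CPM in medium, a log2 fold of 0.01 ± 0.31 (SE).

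Mtf1 ran from 21.3 to 33.4 CPM in Arid5a IL-17 and from 18.2 to 37.9 CPM in Arid5a medium libraries, with a log2 fold of -0.02 ± 0.29 (adjusted p = 0.965). In the IgG RIP it ran from 14.4 to 31.2 CPM with IL-17 and from 16.1 to 35.4 CPM in medium. The groups overlapped in both precipitates. The model of Mtf1 overlaps that of 1110065P20Rik, and the model of Slc30a1 overlaps that of 1700034H15Rik, so that reads of these neighbours may have been counted for them. No other gene model overlaps Mt1, Mt2 or Slc39a14 in the gene table used.

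**Figure D3:**
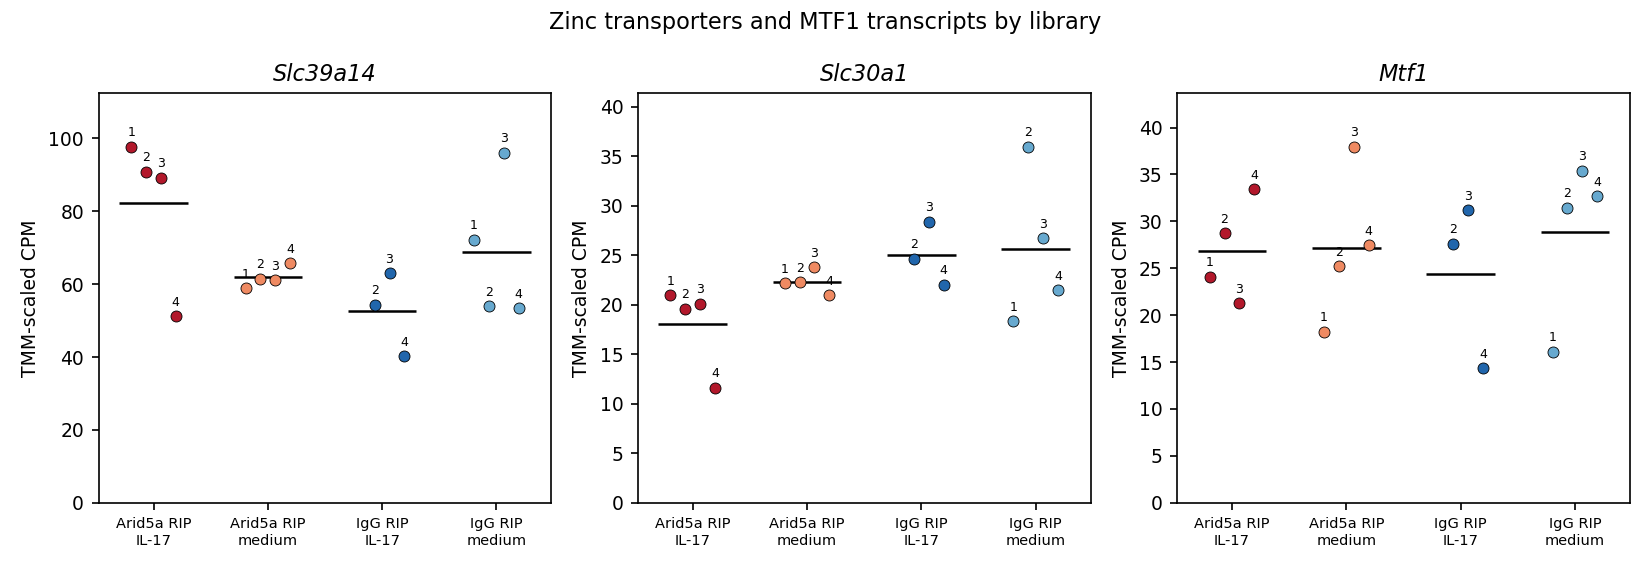
TMM-scaled CPM (vertical axis) of Slc39a14, Slc30a1 and Mtf1 in each of the 15 libraries, by group (horizontal axis). Points are libraries labelled with their replicate number, and lines are group means. Arid5a IL-17 replicate 4 lies apart from the rest of its group for Slc39a14 (51.2 CPM) and Slc30a1 (11.6 CPM), and the Mtf1 groups overlap.

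The comparison of the Arid5a RIP with the IgG RIP asked whether the antibody held more of these transcripts than the control, and edgeR called none of Mt2, Slc39a14, Slc30a1 and Mtf1. With IL-17, 1 of these 4 (Slc39a14) had an unadjusted p below 0.05, as had 8.95% of all genes tested. In medium 0 had, against 12.8% of all genes tested. DESeq2 called none of the 4 either. Of the genes it gave an adjusted p, DESeq2 called 0.519% with IL-17 and 6.9% in medium. These contrasts share the IgG libraries in which Mt1 was found to be higher, so the values of Mt1 are given without a test. In them the well-expressed genes had median log2 folds of 0.15 with IL-17 and -0.19 in medium, against -0.01 and 0.04 for all genes tested. With IL-17, Mt1 averaged 139 ± 24.3 CPM in the Arid5a RIP (SD, n = 4) and 180.1 ± 85.1 CPM in the IgG RIP (n = 3), a log2 fold of -0.36 ± 0.20 (SE). The sign turned to 0.09 ± 0.19 without IgG IL-17 replicate 4. Mt2 averaged 27.3 ± 6.55 CPM and 27.1 ± 10.1 CPM in the same order, a log2 fold of 0.03 ± 0.41 (edgeR adjusted p = 0.992).

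With IL-17, Slc39a14 averaged 82.3 ± 21.0 CPM in the Arid5a RIP and 52.5 ± 11.5 CPM in the IgG RIP (SD, n = 4 and 3). Its log2 fold of 0.64 ± 0.22 had an unadjusted p of 0.00661 by edgeR and an adjusted p of 0.381, and Arid5a IL-17 replicate 4 lay within the range of the IgG libraries. Slc30a1 averaged 18.1 ± 4.34 and 25.0 ± 3.20 CPM (edgeR log2 fold -0.46 ± 0.30, adjusted p = 0.673), with each Arid5a library below each IgG library, as for 4.39% of genes. Mtf1 stood at 0.12 ± 0.31 (adjusted p = 0.935). edgeR called 0.0673% of all genes in this contrast.

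In medium, the log2 folds of the Arid5a RIP against the IgG RIP were 0.04 ± 0.19 for Mt1, -0.31 ± 0.44 for Mt2, -0.17 ± 0.21 for Slc39a14, -0.15 ± 0.29 for Slc30a1 and -0.07 ± 0.29 for Mtf1 (SE). edgeR called 0.628% of all genes and none of the 4 tested here, whose adjusted p lay between 0.768 and 0.954. Mt1 averaged 95.2 ± 13.9 CPM in the Arid5a RIP and 91.4 ± 9.62 CPM in the IgG RIP (SD, n = 4 each). Mt2 averaged 8.83 ± 1.5 CPM and 13.2 ± 13.7 CPM in the same groups, and its fold turned to 0.49 ± 0.35 without IgG medium replicate 2. With an SE of 0.44, a small enrichment of Mt2 could not have been seen.

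The difference between the IL-17 change in the Arid5a RIP and that in the IgG RIP contains the contrast behind the choice of genes, and its values are given for that reason as a description, without a test. Mt1 stood at -0.41 ± 0.28 (SE, log2) with all libraries and at 0.05 ± 0.25 without IgG IL-17 replicate 4. For Mt2 it was 0.34 ± 0.60, for Mtf1 0.19 ± 0.43 and for Slc30a1 -0.31 ± 0.42, each smaller than its SE. Slc39a14, which stood higher with IL-17 in the Arid5a RIP and lower in the IgG RIP, had a difference of 0.81 ± 0.30. Without Arid5a IL-17 replicate 4 the difference was 0.98 ± 0.28. Over all genes edgeR called 0.976% in this contrast, and factors from well-expressed genes left 0 of them (edgeR, 2591 genes at an unadjusted p below 0.05) and put Slc39a14 at 0.45 ± 0.27.

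**Figure D4:**
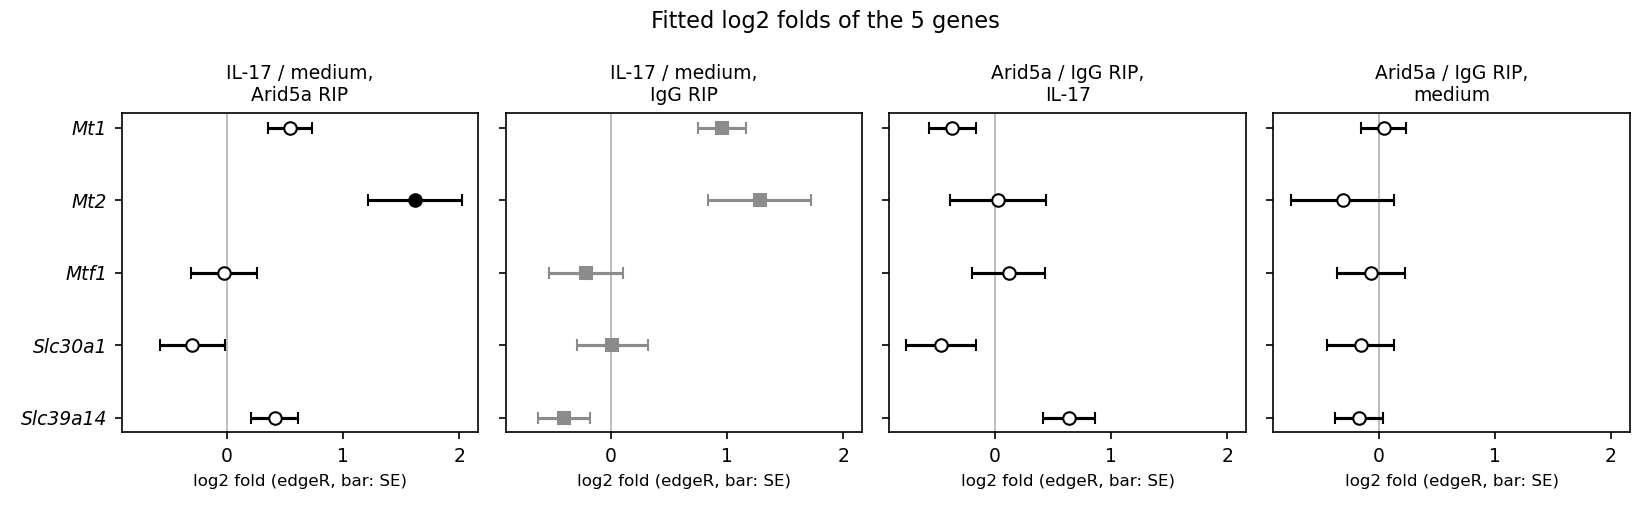
Fitted log2 folds (horizontal axis, bars are SE) of the 5 genes (vertical axis) in 4 contrasts, one a panel. Filled points have an edgeR adjusted p below 0.05, and grey squares mark the IgG contrast that chose the genes, shown without a test. Mt1 between precipitates is drawn like the tested genes, although its values are given without a test. Mt2 with IL-17 in the Arid5a RIP is the filled point, at 1.62 ± 0.40.

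The wider set of zinc genes comprised 4 metallothioneins, 10 exporters of the Slc30a family, 14 importers of the Slc39a family and Mtf1, of which 23 of 29 were tested. With IL-17 in the Arid5a RIP, Mt2 rose and the other 22 did not pass edgeR at an adjusted p below 0.05, while 8 of the 23 had an unadjusted p below 0.05, as had 22.3% of all genes tested. Their median log2 fold was 0.22, between that of all genes (-0.12) and that of well-expressed genes (0.30). DESeq2, which called 8.31% of the genes it gave an adjusted p, also called 1 of the 23, Mt2. With IgG medium replicate 2 and IgG IL-17 replicate 4 left out together, 6 of 24 were called higher, namely Mt1, Mt2, Slc30a4, Slc39a1, Slc39a6 and Slc39a10. That fit, chosen after seeing the data, called 9.3% of all its genes higher. With factors from well-expressed genes 0 were called by edgeR, 4 had an unadjusted p below 0.05, and the median was -0.08.

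Of the 8 tested exporters, edgeR called 0 for IL-17 against medium in the Arid5a precipitate. There 1 exporter reached an unadjusted p below 0.05, as did 22.3% of all genes tested. The highest in FPKM were Slc30a4 (mean 30.0), Slc30a5 (15.8) and Slc30a9 (12.6). Slc30a4, an exporter known for loading zinc into vesicles and milk, averaged 190.4 ± 29.7 CPM with IL-17 and 137 ± 10.4 CPM in medium (SD, n = 4 each). Its log2 fold was 0.47 ± 0.15 (edgeR adjusted p = 0.0542), without overlap of the groups, as for 10.7% of all genes in this direction. It passed without IgG medium replicate 2 (adjusted p = 0.0230), IgG IL-17 replicate 3 (0.0350), IgG IL-17 replicate 4 (0.0256) or Arid5a IL-17 replicate 4 (0.0110). Upper-quartile factors put it at 0.26 ± 0.13 (adjusted p = 0.275) and factors of the well-expressed genes at 0.16 ± 0.13 (0.461). Slc30a5 and Slc30a9 stood at 0.22 ± 0.23 and 0.29 ± 0.22, and both signs turned with factors from well-expressed genes.

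Of the 12 tested importers, edgeR called 0 in the same comparison. An unadjusted p below 0.05 was reached by 5, and by 22.3% of all genes tested. The highest in FPKM were Slc39a7 (mean 113), Slc39a1 (27.9) and Slc39a6 (23.8). Slc39a7, which releases zinc from the endoplasmic reticulum, stood at 0.24 ± 0.17 (edgeR adjusted p = 0.407), with the sign turned by factors from well-expressed genes. Slc39a6 averaged 101 ± 8.76 CPM with IL-17 and 66.7 ± 4.66 CPM in medium (SD, n = 4 each). Its groups did not overlap, as for 10.7% of all genes in this direction. Its log2 fold was 0.60 ± 0.20 (edgeR adjusted p = 0.0626). Slc39a1, a plasma membrane importer, stood at 0.51 ± 0.19 (adjusted p = 0.0944). Both Slc39a6 and Slc39a1 passed without IgG medium replicate 2 (adjusted p 0.00985 and 0.0445). Slc39a6 also passed without IgG IL-17 replicate 3 (0.0434), IgG IL-17 replicate 4 (0.0338) or Arid5a IL-17 replicate 4 (0.0365), and with no filter on low counts (0.0417). Factors of the well-expressed genes put Slc39a6 at 0.29 ± 0.18 (adjusted p = 0.342) and Slc39a1 at 0.21 ± 0.17 (0.447), and upper-quartile factors at 0.39 (0.250) and 0.30 (0.303).

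**Figure D5:**
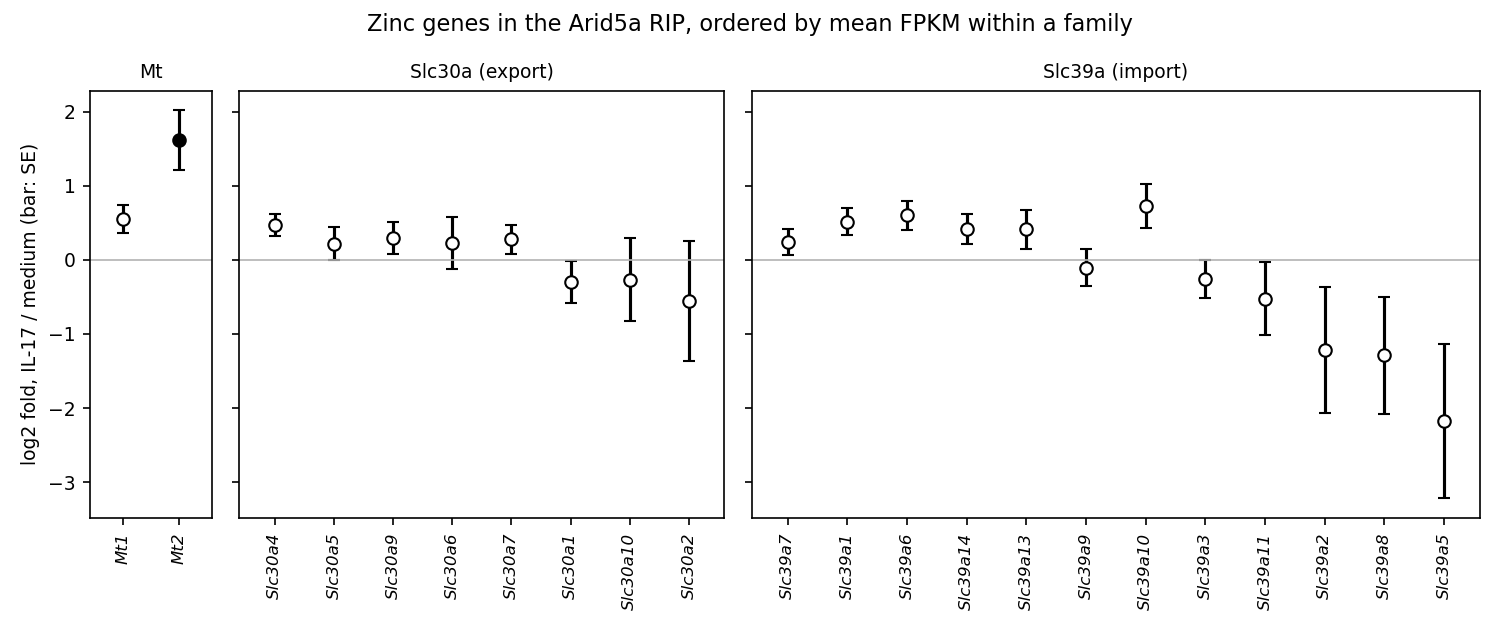
Fitted log2 folds of IL-17 against medium in the Arid5a RIP (vertical axis, bars are SE) for the tested metallothionein, Slc30a and Slc39a genes (horizontal axis), ordered by mean FPKM within a family. The filled point has an adjusted p below 0.05. Mt2 at 1.62 lies above the transporters, whose most abundant members lie between 0.22 and 0.60, while the scarcest importers lie below 0 with wide bars.

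Between precipitates, edgeR called 0 of the 23 zinc genes in either condition. An unadjusted p below 0.05 was found for 1 with IL-17, where 8.95% of all genes had one, and for 3 in medium, where 12.8% had. DESeq2 called 0 with IL-17 (and 0.519% of the 13681 genes it gave an adjusted p) and 1 in medium (and 6.9% of the 5040 genes it gave one), Slc39a7, which averaged 201 ± 56.8 CPM in the Arid5a RIP and 301 ± 70.1 CPM in the IgG RIP (SD, n = 4 each). By edgeR Slc39a7 stood at -0.58 ± 0.17 (adjusted p = 0.119). The medians of the 23 were -0.10 with IL-17 and -0.16 in medium. The 23 include Mt1, whose IgG values led to the choice of genes, so nothing is read about Mt1 from these counts.

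Lists of neighbouring biology were read beside the zinc genes for IL-17 against medium in the Arid5a RIP. Of 19 oxidative and metal stress genes, 7 rose and 0 fell, where edgeR called 4.84% of all genes higher and 0.813% lower. Their median log2 fold was 0.38, against -0.12 for all genes and 0.30 for well-expressed genes. Sqstm1, a selective autophagy receptor, averaged 346 ± 49.8 CPM with IL-17 and 164.5 ± 11.9 CPM in medium (SD, n = 4 each), a log2 fold of 1.07 ± 0.15 (edgeR adjusted p = 2.11e-05). Txn1, the cytosolic thioredoxin gene, rose by 0.82 ± 0.16 (adjusted p = 0.00133) and Hmox1, the inducible haem oxygenase gene, by 0.72 ± 0.15 (adjusted p = 0.00298). With factors from well-expressed genes Sqstm1 and Txn1 remained called (0.76 and 0.51) and Hmox1 did not (0.41, adjusted p = 0.0793), nor did it pass on log2(FPKM + 1) with limma (0.0654). In the IgG RIP, described without a test, the median log2 fold of the 19 genes was 0.01. Txn1 averaged 162 ± 36.7 CPM there with IL-17 and 161 ± 23.7 CPM in medium (SD, n = 3 and 4). Sqstm1 averaged 301 ± 65.7 against 150 ± 24.4 CPM, and Hmox1 248 ± 49.8 against 179 ± 26.7 CPM.

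Of 14 tested iron-handling genes 2 rose and 0 fell in the Arid5a RIP, with a median log2 fold of 0.30, equal to that of well-expressed genes. They were Tfrc, the transferrin receptor gene (0.69 ± 0.17, edgeR adjusted p = 0.0124), and Slc11a2, an iron importer gene (1.00 ± 0.29, adjusted p = 0.0342). Neither passed with factors of the well-expressed genes (adjusted p 0.154 and 0.178), upper-quartile factors (0.0909 and 0.148) or on log2(FPKM + 1) with limma (0.164 and 0.371). Slc11a2 also missed the threshold with the length offset (0.0542) and with the replicate number as a block (0.0556). Slc11a2 kept its call with 8 of the 15 libraries left out in turn, and lost it without any single Arid5a library other than IL-17 replicate 4. Tfrc lost it without Arid5a IL-17 replicate 2 (0.0978) or Arid5a medium replicate 2 (0.0522). None of 12 copper-handling and 8 glucocorticoid-responsive genes was called by edgeR, with medians of 0.19 and 0.06. An unadjusted p below 0.05 was reached by 1 and 2 of them, and by 22.3% of all genes tested. Metallothioneins are known targets of glucocorticoids as well as of metals.

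The genes whose pattern over the 15 libraries was most like that of Mt2 were Csrp2, Cebpd, Nfkb2, Ell2 and Rsbn1. Likeness was the root mean square difference of gene-centred log2 CPM, which was 0.476 for Csrp2 and 0.481 for Cebpd, among 10947 genes with an average log2 CPM of 3 or more. Cebpd, which encodes a C/EBP transcription factor, averaged 51.5 ± 4.61 CPM in Arid5a IL-17 and 13.2 ± 1.76 CPM in Arid5a medium libraries (SD, n = 4 each). It averaged 52.2 ± 13.3 CPM in IgG IL-17 and 17.1 ± 6.93 CPM in IgG medium libraries (n = 3 and 4). Mt1 ranked 452 of 10947 in likeness to Mt2, with a difference of 0.763.

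The pattern of Mt1 was most like those of Uqcr10 (0.213), Smim15 (0.220), Micall1 (0.221), Cd44 (0.225) and Ifi202b (0.233). Cd44, the gene of a hyaluronan receptor, averaged 294 ± 40.2 CPM in Arid5a IL-17 and 188 ± 21.3 CPM in Arid5a medium libraries (SD, n = 4 each). It averaged 312 ± 67.8 CPM in IgG IL-17 and 184.5 ± 46.4 CPM in IgG medium libraries (n = 3 and 4). The other zinc genes ranked far down for Mt1, with Slc39a14 at 5815, Slc30a1 at 5926, Mtf1 at 7975 and Mt2 at 8108 of 10947. The measure counts the size of changes as well as their direction. Mt2 had an SD of log2 CPM of 0.981 over the libraries, against 0.472 for Mt1. The same difference of 0.763 ranked Mt1 at 452 for Mt2, so the low rank of Mt2 is not read as an unlike direction. All of these likenesses share the same libraries, depths and scaling factors. They include the IgG libraries, so every likeness to Mt1 uses the values behind the choice of genes and is given as a description.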

How the data were processed

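Expected counts and FPKM for 25239 genes in 15 libraries were used as the authors deposited them. Per the submitters' processing notes, STAR 2.7.9, RSEM 1.3.1, DESeq2 1.36.0, R 4.3.0 and mm10 were used; what each did, the gene models and the strandedness used in counting are not given in the sources used here. The deposited expected counts were taken to be raw estimates, as library totals differed and 2.66% to 10.3% of a library's values had decimals. The deposited FPKM values are scaled to library total and effective gene length. Libraries were grouped by title. After rounding to whole numbers the counts were passed to edgeR 4.0.16 (R 4.3.3). filterByExpr by group left 17835 genes, which were scaled with TMM and given robust quasi-likelihood fits of 4 group means over all libraries, with Benjamini-Hochberg adjustment over all genes within a comparison and calls below 0.05. Every p of a single gene is from this test unless another tool is named. Alternatives were DESeq2 1.42.0, limma 3.58.1 on log2(FPKM + 1) and log2(FPKM + 0.1), other scaling factors, no filter, the replicate number as a block and each library left out. A length offset, and a fit lacking both IgG IL-17 replicate 4 and IgG medium replicate 2, were added after seeing the data.

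The genes, lists, tests and alternatives were chosen with earlier results of these data known. Named genes were the 5 genes, called zinc genes, the 3 transporters of each family with the highest mean FPKM, up to 3 called genes of each further list by smallest p for the IL-17 change in the Arid5a precipitate, the 5 genes most like Mt1 and Mt2, and Cxcl1, Nfkbiz and Zc3h12a. Slc39a10 was named after its values were seen. The labels do not say what a replicate number marks. Of 14 same-numbered pairs, 1 had deviations from group means that correlated above 0.1 across genes (r from -0.13 to 0.20), so the numbers were not taken to pair the libraries. Gene symbols matched RefSeq GRCm38.p6 for 25041 genes (99.22%).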

Additional observations from a re-analysis of the deposited data

Results flagged for a closer look

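In IgG medium, Mt2 in replicate 2 stood at 33.7 CPM, with the other libraries of the group between 5.42 and 7.73 CPM, a gap of 0.918 of the group's range. In Arid5a IL-17, Slc30a1 in replicate 4 stood at 11.6 CPM, with the others between 19.6 and 21.0 CPM, a gap of 0.854 of the range. Dixon's 95% critical value for 4 libraries is 0.829, and chance passes it in about 1 of 20 groups, with 15 groups of 4 examined. Groups of 3 were not examined in this way, so Mt1 in IgG IL-17 replicate 4 was not. The causes were not tested.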

How the results depend on the processing

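Values here are log2 folds unless called counts. Mt2 and Mt1 with IL-17 in the Arid5a RIP stayed positive under all 24 alternatives. The call of Mt2 was lost with upper-quartile factors, with factors of well-expressed genes and on both FPKM scales. That call was also lost without Arid5a medium replicate 2, Arid5a IL-17 replicate 1 or Arid5a IL-17 replicate 2. The cause of these losses was not tested. Of 936 settings over single genes, 825 stayed the same, 29 lost a call, 20 gained one, 59 reversed and 3 moved. The genes of like pattern and Slc39a10 were not among these genes. Staying the same means an unchanged direction and call. For IL-17 in the IgG RIP, calls were not judged. There it means an unchanged direction and a fold shifted by less than the within-group SD, and moved means a larger shift. Low counts of Mt2, Mtf1 and Slc30a1 limit their precision.

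Genes called for IL-17 in the Arid5a RIP numbered 1008, against 321 with upper-quartile factors, 323 with factors of well-expressed genes, 113 and 75 on log2(FPKM + 1) and log2(FPKM + 0.1), 2600 without IgG IL-17 replicate 4 and IgG medium replicate 2, and 308 (without Arid5a IL-17 replicate 2) to 2257 (without Arid5a IL-17 replicate 4) with 1 library left out. In the IgG RIP they numbered 88, against 320 with DESeq2, 45 and 40 on the FPKM scales, and 43 (without IgG IL-17 replicate 2) to 257 (without IgG medium replicate 1). For Arid5a against IgG with IL-17 they numbered 12, against 6 with upper-quartile factors, 0 with factors of well-expressed genes by edgeR (1438 at an unadjusted p below 0.05), 71 with DESeq2, 26 without a filter, 5 on either FPKM scale, 20 with the length offset, and 2 (without IgG IL-17 replicate 4) to 76 (without Arid5a IL-17 replicate 4). In medium they numbered 112, against 4 with upper-quartile factors, 0 by edgeR with factors of well-expressed genes (2063 unadjusted), 348 with DESeq2, 1 on either FPKM scale, 74 with the length offset, 15 without both IgG libraries, and 0 (without IgG medium replicate 3, with 1944 unadjusted) to 350 (without IgG medium replicate 1). For the difference of the IL-17 changes they numbered 174, against 0 by edgeR with upper-quartile factors or factors of well-expressed genes (2446 and 2591 unadjusted), 405 with DESeq2, 6 and 2 on the FPKM scales, 309 without both IgG libraries, and 0 (without Arid5a IL-17 replicate 1, with 2239 unadjusted) to 715 (without Arid5a IL-17 replicate 4).

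The replicate number as a block gave 784 and 66 calls for IL-17 in the Arid5a and IgG RIP, 5 and 49 for Arid5a against IgG with IL-17 and in medium, and 85 for the difference. The numbers were not taken to pair the libraries, so a call lost under the block is not read as a weaker effect. With this block Mtf1 stood at 0.034 (IL-17, Arid5a RIP), Slc30a1 at -0.012 (IL-17, IgG RIP) and Mt2 at -0.038 (Arid5a against IgG, IL-17), each reversed.

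Other reversals follow. For Arid5a against IgG with IL-17, Mt2 stood at -0.084 with upper-quartile factors, -0.14 with factors of well-expressed genes and -0.035 with DESeq2, and Mtf1 at -0.029 with factors of well-expressed genes. In medium, Mtf1 stood at 0.090, 0.12, 0.077 and 0.097 with upper-quartile factors, factors of well-expressed genes and the FPKM scales with 1 and 0.1 added, and Slc30a1 at 0.0015, 0.027, 0.011 and 0.018 in the same order. Slc39a14 stood at 0.011 with factors of well-expressed genes and at 0.053 and 0.058 on the FPKM scales. The difference of the IL-17 changes for Mtf1 was -0.074, -0.15, -0.017 and -0.0051 under these 4 settings. With factors of well-expressed genes, Slc30a5, Slc30a9 and Slc39a7 stood at -0.083, -0.018 and -0.063 for IL-17 in the Arid5a RIP. Without IgG IL-17 replicate 4 and IgG medium replicate 2, Mtf1 stood at 0.081 (IL-17, IgG RIP), -0.11 (Arid5a against IgG, IL-17) and -0.086 (difference), Mt1 at 0.11 (Arid5a against IgG, IL-17), -0.0077 (medium) and 0.12 (difference), Mt2 at 0.48 (medium) and -0.15 (difference), and Slc30a1 at 0.020 (medium).

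With 1 library left out, Mtf1 ran from -0.18 to 0.18 for IL-17 in the Arid5a RIP and from -0.43 to 0.078 in the IgG RIP, where Slc30a1 ran from -0.13 to 0.19. For Arid5a against IgG with IL-17, Mt1 ran from -0.55 to 0.086, Mt2 from -0.22 to 0.29 and Mtf1 from -0.13 to 0.33. In medium, Mt1 ran from -0.019 to 0.14, Mt2 from -0.57 to 0.49, Mtf1 from -0.29 to 0.085, Slc30a1 from -0.29 to 0.028 and Slc39a14 from -0.28 to 0.032. The difference ran from -0.61 to 0.049 for Mt1, from -0.44 to 0.60 for Mt2 and from -0.062 to 0.41 for Mtf1.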
